A study of Mus musculus with 8 samples.

Results

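The cyclin-dependent kinase inhibitors of the CIP/KIP family (Cdkn1a and Cdkn1b) and of the INK4 family (Cdkn2a, Cdkn2b, Cdkn2c and Cdkn2d) were followed in mouse epidermal cells, together with Lmnb1, which encodes lamin B1. The 7 genes were chosen by name, and all 7 had a row among the 27179 genes of the count table. Of these, 6 passed the expression filter and were tested. Cdkn2a did not pass it and is described by its reads.

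Cells enter the division cycle when cyclins activate their kinases, which phosphorylate the retinoblastoma protein and release E2F transcription factors. INK4 proteins bind CDK4 and CDK6 and block their pairing with D-type cyclins, whereas CIP/KIP proteins bind assembled cyclin-kinase complexes, above all those of CDK2. The p53 protein activates Cdkn1a, and senescent cells, which have left the cycle for good, are commonly recognized by high p16Ink4a (a product of Cdkn2a), high Cdkn1a and low lamin B1. In the epidermis, basal keratinocytes stop dividing as they move outwards and differentiate.

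RNA was sequenced from epidermal cells of 4 aged and 4 adult mice of strain C57bl/6J, 1 library each. By the labels, aged mice were 73 weeks old and adult mice 17 to 25 weeks old. The labels also give both groups a control IgG, injected intraperitoneally at 210 µg in 100 µl 3 times per week for 12 weeks. The methods of the study describe such injections for ageing mice only, 73 weeks old before the 12 weeks of treatment. They give aged mice in general an older age, so the labelled 73 weeks could be the age at the start of treatment. It is not settled which mice were injected, and age and injection cannot be told apart if the adult mice were not. Epidermis was separated enzymatically, and no sorting is described, so hair follicle, sebaceous, immune and pigment cells could be included.

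Library totals ranged from 75027694 to 90140102 counts. The summed level of 10 keratinocyte markers was 21440 to 25890 CPM (counts relative to library size, with TMM scaling) in aged and 20570 to 25600 CPM in adult libraries, in accord with the labelled tissue. Adult replicates 3 and 4 stood apart. They had the highest sums of hair shaft and inner sheath markers (14 matched genes, 519.3 and 1069 CPM, against 41.5 to 424 CPM in the other 6 libraries) and the lowest sums of immune markers (10 genes, 46.8 and 104.5 CPM, against 125.5 to 342 CPM). Fibroblast markers summed to 4.93 to 48.7 CPM in aged and 10.9 to 45.4 CPM in adult libraries, sebaceous markers to 619.9 to 1160 CPM and 713.9 to 863 CPM, melanocyte markers to 40.4 to 73.9 CPM and 46.8 to 75.5 CPM, and endothelial, Merkel cell and adipocyte markers stayed at or below 2.23 CPM. Mitochondrial genes took 17.3% to 25.5% of counts in aged and 17.5% to 31.1% in adult libraries. Fold changes and medians that these libraries turn, or move by over 1.5 times, are given with and without them. In such bulk samples, fewer cells of a type and less RNA per cell cannot be told apart.

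Promoter windows are shown for Cdkn1a, the most abundant member, and Cdkn2a, whose 2 starts give different proteins. The sequences are the 250 bases before each annotated start, taken from RefSeq on build GRCm38.p6. The 6 inhibitor genes had 9 windows, and Lmnb1 was left out of the motif search. Cdkn1a, on chromosome 17, has 2 starts 2790 bases apart. Each window is written 5′ to 3′ on the strand of the gene, and capitals mark motif matches on either strand.
Cdkn1a, upstream start, chr17:29090729-29090978, plus strand: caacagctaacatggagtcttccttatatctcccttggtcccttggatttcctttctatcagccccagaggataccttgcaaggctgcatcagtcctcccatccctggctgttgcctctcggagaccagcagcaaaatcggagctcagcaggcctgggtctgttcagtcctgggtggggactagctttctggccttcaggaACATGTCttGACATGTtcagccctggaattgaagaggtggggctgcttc
Cdkn1a, downstream start, chr17:29093519-29093768, plus strand: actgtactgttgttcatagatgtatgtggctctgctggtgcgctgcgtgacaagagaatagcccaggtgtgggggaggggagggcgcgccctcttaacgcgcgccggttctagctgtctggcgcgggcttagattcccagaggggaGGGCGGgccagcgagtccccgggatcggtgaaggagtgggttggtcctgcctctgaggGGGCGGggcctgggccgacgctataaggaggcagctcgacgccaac
The capitals in the first window are 2 matches to ACATGTC, the core of a p53 half-site, which begin 49 and 40 bases before the start. This motif was found in 1.62% of 32851 promoter windows, and at least 2 matches in 0.201%. The downstream window has no such match, but has 2 matches to the GC box GGGCGG, which was found in 32.7% of windows. A letter match is a description of the sequence and does not show that a factor was bound in these cells.

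Cdkn2a, on chromosome 4, has 2 starts 12427 bases apart, and each first exon is spliced to a shared second exon, read in different frames to give p19Arf, which holds back the p53 inhibitor Mdm2, and p16Ink4a. The deposited count sums reads of both transcripts, so neither product could be followed alone.
Cdkn2a, upstream start (p19Arf), chr4:89294620-89294869, minus strand: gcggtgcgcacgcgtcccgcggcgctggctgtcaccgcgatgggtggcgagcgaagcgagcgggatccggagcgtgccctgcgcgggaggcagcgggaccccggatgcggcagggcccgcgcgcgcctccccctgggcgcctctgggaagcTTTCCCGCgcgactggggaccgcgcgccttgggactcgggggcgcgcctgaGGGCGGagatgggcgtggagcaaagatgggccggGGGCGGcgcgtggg
Cdkn2a, downstream start (p16Ink4a), chr4:89282193-89282442, minus strand: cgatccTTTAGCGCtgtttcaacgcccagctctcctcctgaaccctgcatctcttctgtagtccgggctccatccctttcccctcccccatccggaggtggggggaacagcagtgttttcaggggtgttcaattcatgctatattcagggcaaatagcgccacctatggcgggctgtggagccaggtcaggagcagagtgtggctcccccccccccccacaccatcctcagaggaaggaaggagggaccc
In these windows the capitals mark the E2F motif TTTNNCGC, found once in each and in 4.28% of all windows, and the GC box, found in 2 places in the p19Arf window and in none of the p16Ink4a window. The E2F match begins 99 bases before the upstream start and 244 bases before the downstream start. Cdkn2b starts 16413 bases further upstream on the same strand. The other motifs searched, on both strands, were the TATA box TATAAA (12.4% of windows), the E-box CACGTG (6.02%) and the cell cycle homology region TTTGAA (16.0%). Of these only the last matched, in 1 place of the Cdkn2b window. No matches of different motifs overlapped in these windows.

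The members differed widely in level. Per kilobase of exon (RPKM, comparable between genes), Cdkn1a was highest with a mean of 64.6 RPKM over 8 libraries (range 53.5 to 82.5), followed by Cdkn1b with 19.7 RPKM (17.9 to 21.7). Cdkn2b (8.29 RPKM, 4.76 to 11.4), Lmnb1 (6.43 RPKM, 3.69 to 7.73) and Cdkn2d (5.19 RPKM, 3.86 to 6.73) came next and overlapped. Neighbours in this group kept their order in 6 of 8 libraries in each case, so their ranks did not differ beyond the spread. Cdkn2c had 2.06 RPKM (1.74 to 2.36), below Cdkn2d in 8 of 8 libraries, and Cdkn2a had 0.0302 RPKM (0 to 0.103). Among the summed RPKM of the 6 inhibitors, Cdkn1a made up 62.5% on average in aged and 66.2% in adult libraries, Cdkn1b 20.5% and 19.4%, and Cdkn2a 0.0488% and 0.0127%. CIP/KIP transcripts thus dominated over INK4 transcripts in every library.

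**Figure D1:**
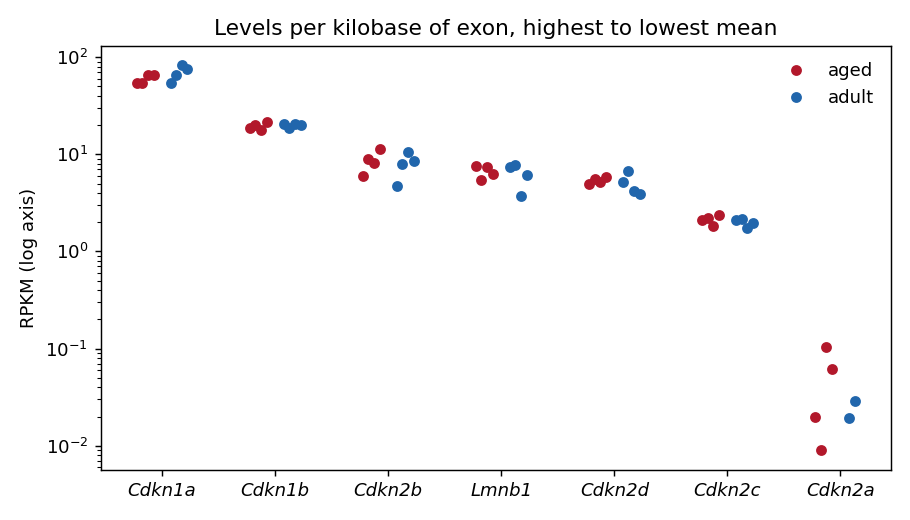
Level of each gene per kilobase of exon (RPKM, log axis) in 4 aged (red) and 4 adult (blue) libraries, with genes in order of their mean. Cdkn1a lies above Cdkn1b in 8 of 8 libraries, Cdkn2b, Lmnb1 and Cdkn2d overlap, and Cdkn2a is lowest. Adult replicates 3 and 4 are at 0 for Cdkn2a and are not drawn there.

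The central comparison asked whether these genes differ between aged and adult epidermis. None of the 6 tested members was called by edgeR's quasi-likelihood test, with a threshold of 0.1 on the Benjamini-Hochberg adjusted p and an absolute log2 fold change over 0.32. Over all 17702 tested genes 0.113% were called, 0.0282% higher and 0.0847% lower in aged mice. At an unadjusted p under 0.05, 0 of 6 members passed, beside 5.99% of all tested genes. DESeq2 called 0 of 6 members as well, beside 1.07% of all genes. For 0 of 7 members did the aged and adult libraries separate without overlap, as they did for 3.54% of tested genes.

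**Figure D2:**
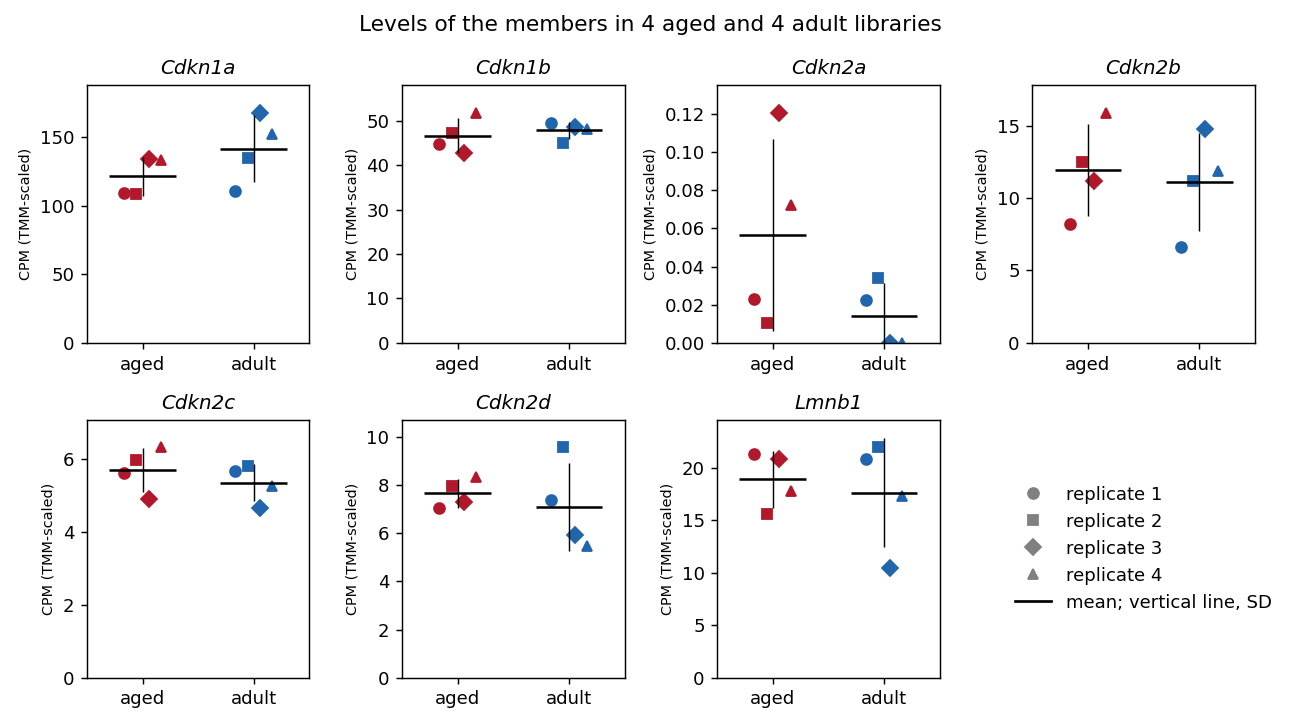
Level of each gene in CPM (vertical axes start at 0) in 4 aged (red, left) and 4 adult (blue, right) libraries. Marker shapes give the replicate number, horizontal lines the mean and vertical lines the SD, cut at 0. The groups overlap for all 7 genes, and the low adult values of Lmnb1 and Cdkn2d belong to replicates 3 and 4.

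Cdkn1a encodes p21, the inhibitor through which p53 arrests the cycle. It stood at 109.2, 108.9, 133.9 and 133.5 CPM in aged replicates 1 to 4, against 111.0, 134.7, 168.0 and 152.4 CPM in adult replicates 1 to 4. The aged values were lower in 4 of 4 pairs with the same replicate number. Such pairs are not given by the design and are uncertain, and the share of all genes with this pattern was not counted. The groups overlapped, since adult replicate 1 was close to the lowest aged libraries. The means were 121.4 ± 14.2 CPM in aged and 141.5 ± 24.5 CPM in adult libraries (SD, n = 4 each), with an exact two-sided permutation p of 0.143. The log2 fold change of aged over adult was −0.22 ± 0.14 (SE), with a 95% interval of −0.54 to 0.10 and an edgeR adjusted p of 0.842. Without adult replicates 3 and 4, a subset that keeps aged replicates 3 and 4, it was −0.02. It was −0.16 in replicates 1 and 2 alone and −0.28 in replicates 3 and 4 alone. With a term for replicates 1-2 against 3-4 it was −0.22 (edgeR unadjusted p = 0.0288, adjusted p = 0.348). An unstudied antisense gene overlaps Cdkn1a in the GENCODE annotation, and the sources used here do not state whether strand entered the counting, so reads of the pair cannot be told apart.

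Cdkn1b encodes p27, which restrains CDK2 in resting cells. It was the steadiest member, with 44.7, 47.3, 42.7 and 51.8 CPM in aged and 49.5, 45.0, 48.7 and 48.1 CPM in adult libraries. The highest and the lowest library both belonged to the aged group. The log2 fold change was −0.04 ± 0.09 (interval −0.23 to 0.16, edgeR adjusted p = 0.960), the narrowest interval among the members, and the exact permutation p was 0.629. The fold change was −0.02 without adult replicates 3 and 4. The log2 ratio of Cdkn1a to Cdkn1b counts within a library, which does not depend on scaling, was 1.38 ± 0.19 in aged and 1.55 ± 0.27 in adult libraries (SD, n = 4 each). The difference of −0.17 had an exact two-sided permutation p of 0.371, where the smallest p that 70 splits allow is 0.0286. Without adult replicates 3 and 4 this difference was 0.002.

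Cdkn2a was barely detected. It had 2, 1, 9 and 6 reads in aged replicates 1 to 4, against 2, 3, 0 and 0 reads in adult replicates 1 to 4. Aged replicates 3 and 4 held 15 of the 18 aged reads, whereas aged replicates 1 and 2 held 3 reads and lay within the adult range. The summed 18 reads in aged and 5 in adult libraries gave a rate ratio of 3.49 per read of library total, with an exact interval of 1.249 to 12.0 that covers counting error only and leaves out the spread between mice. Counts of 0 in adult replicates 3 and 4 allow levels of up to 0.0411 and 0.042 CPM (3 reads per library), above the level of aged replicates 1 and 2. Over mice, the means were 0.0567 ± 0.0503 CPM in aged and 0.0142 ± 0.0170 CPM in adult libraries (SD, n = 4 each), with an exact two-sided permutation p of 0.2. Without the expression filter, edgeR gave an unadjusted p of 0.116 and an adjusted p of 0.833. A difference was thus not detected over the spread between these mice.

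Cdkn2b, the neighbour of Cdkn2a on chromosome 4, encodes p15, an inhibitor known for its induction by TGF-β. It had 7539 reads over the 8 libraries, or 328 for each read of Cdkn2a. Its level was 8.23, 12.5, 11.2 and 15.9 CPM in aged and 6.62, 11.1, 14.7 and 11.9 CPM in adult libraries, and replicate 1 was the lowest of both groups. The log2 fold change was 0.11 ± 0.26 (interval −0.47 to 0.69, edgeR adjusted p = 0.962, exact permutation p = 0.686), and it was 0.43 without adult replicates 3 and 4. Its interval was the widest among the tested members. A long noncoding RNA of RefSeq lies across Cdkn2b, and reads of the pair cannot be told apart without strand.

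Cdkn2c encodes p18, and was even across libraries at 5.61, 5.97, 4.92 and 6.33 CPM in aged and 5.67, 5.81, 4.67 and 5.28 CPM in adult libraries. Replicate 3 was the lowest of each group. The log2 fold change was 0.09 ± 0.14 (interval −0.22 to 0.40, edgeR adjusted p = 0.924, exact permutation p = 0.4), and it was −0.007 without adult replicates 3 and 4.

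Cdkn2d encodes p19Ink4d, a different protein from the p19Arf of Cdkn2a. Its level was 7.06, 7.99, 7.29 and 8.37 CPM in aged and 7.41, 9.58, 5.95 and 5.49 CPM in adult libraries. All aged values lay inside the adult range, which was set by replicate 2 at the top and replicates 3 and 4 at the bottom. The log2 fold change was 0.11 ± 0.18 (interval −0.30 to 0.52, edgeR adjusted p = 0.932, exact permutation p = 0.629), and it turned to −0.15 without adult replicates 3 and 4. Its sign turned between replicate pairs, with −0.17 in replicates 1 and 2 and 0.44 in replicates 3 and 4. A test of that difference, chosen after the values were seen, gave an unadjusted p of 0.0366 and an adjusted p of 0.417 in edgeR.

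Lmnb1 encodes lamin B1, a protein of the inner nuclear envelope whose loss marks senescent cells in culture. Its level was 21.3, 15.6, 20.9 and 17.8 CPM in aged and 20.9, 22.0, 10.5 and 17.3 CPM in adult libraries. Adult replicate 3 was the lowest of all 8 libraries and the other adult values lay at or above aged replicate 2. The means were 18.9 ± 2.70 CPM in aged and 17.7 ± 5.18 CPM in adult libraries (SD, n = 4 each, exact permutation p = 0.743). The log2 fold change was 0.10 ± 0.22 (interval −0.39 to 0.58, edgeR adjusted p = 0.956), and turned to −0.18 without adult replicates 3 and 4. It was −0.21 in replicates 1 and 2 and 0.46 in replicates 3 and 4, and the test of that difference gave an unadjusted p of 0.0717 and an adjusted p of 0.518 in edgeR.

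**Figure D3:**
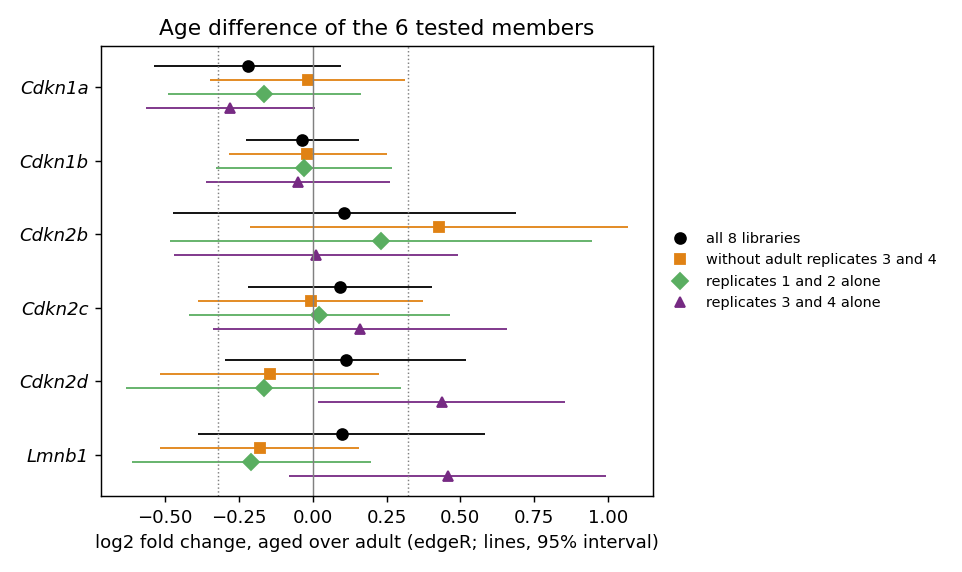
Log2 fold change of aged over adult (points) with its 95% interval (lines) for the 6 tested members, from edgeR on all 8 libraries and on subsets of them. The vertical line marks 0 and dotted lines mark the threshold of 0.32 in either direction. With all 8 libraries each interval includes 0, and the sign for Cdkn2d and Lmnb1 differs between replicate pairs.

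Over the 8 libraries, 3 of the 6 tested members were related to the level of proliferation genes. The mean log2 CPM of 30 proliferation genes, such as those of replication and mitosis, was 4.51, 4.29, 4.27 and 4.38 in aged and 4.34, 4.35, 3.09 and 3.97 in adult libraries (exact permutation p = 0.229). Adult replicate 3, and to a lesser degree adult replicate 4, lay below the other 6. Over 8 libraries, Lmnb1 was positively related to that mean (Pearson r = 0.898, exact p = 0.0201, adjusted over 6 relations 0.0477), as was Cdkn2c (r = 0.727, exact p = 0.0239, adjusted 0.0477). Cdkn1a was negatively related (r = −0.786, exact p = 0.00568, adjusted 0.0341). Spearman's rho was 0.667, 0.667 and −0.619 in the same order, each with an adjusted exact p of 0.227. For Cdkn2d r was 0.625, for Cdkn2b −0.459 and for Cdkn1b −0.235. None of these 3 had an adjusted exact p under 0.05, the limit taken for relations.

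These 3 relations rested on adult replicates 3 and 4, and those of Lmnb1 and Cdkn2c mainly on adult replicate 3. Without adult replicate 3 alone, r was 0.473 for Lmnb1, 0.425 for Cdkn2c and −0.688 for Cdkn1a. The adjusted exact p were 0.513, 0.513 and 0.374. Without adult replicate 4 alone, r was 0.902, 0.719 and −0.798, each with an adjusted exact p of 0.0948. Without adult replicates 3 and 4, the 2 farthest from the median of the list, r was 0.349 for Lmnb1, 0.25 for Cdkn2c and −0.317 for Cdkn1a, each with an adjusted exact p of 0.795. After the group means were subtracted, with all 8 libraries kept, r was 0.934 for Lmnb1, 0.687 for Cdkn2c and −0.717 for Cdkn1a. The same permutation gave adjusted p of 0.00744, 0.0992 and 0.0992, which are approximate and not exact. Values centred by group cannot be freely exchanged, and the SD of the list mean was 0.111 in aged and 0.591 in adult libraries. Adult replicates 3 and 4 are also those with the high hair shaft and low immune marker sums given above, and the part of these in the relations was not tested.

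**Figure D4:**
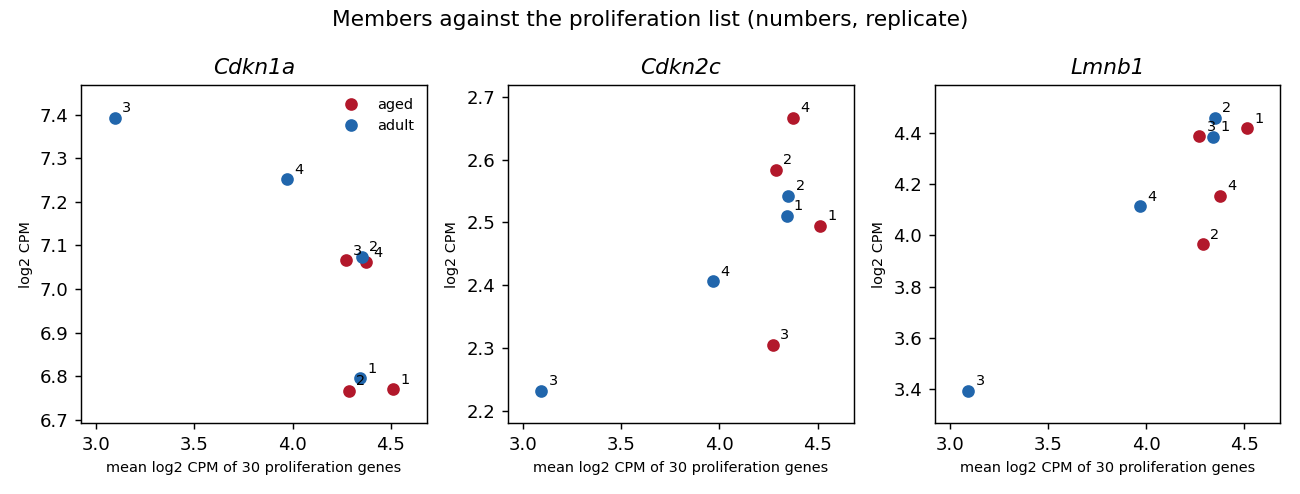
Log2 CPM of Cdkn1a, Cdkn2c and Lmnb1 (vertical axes) against the mean log2 CPM of 30 proliferation genes (horizontal axes) in 4 aged (red) and 4 adult (blue) libraries, with replicate numbers. Adult replicates 3 and 4 lie to the left of the others, which crowd between 4.27 and 4.51, and carry the relations.

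Across 11148 genes of at least 5 CPM, the genes most like each member over the 8 libraries were listed by Pearson r of log2 CPM, as a description. For Cdkn1a these were Jup, which encodes the junction protein plakoglobin (r = 0.992), and Gga1 (0.989). For Cdkn1b they were Lclat1 (0.916) and AI597479 (0.912), and for Cdkn2b Ggct (0.979) and Mindy3 (0.976). Cdkn2c was most like Art3 (0.978) and 2610002M06Rik (0.961), and Cdkn2d most like Hdac11 (0.961) and Isoc1 (0.957). For Lmnb1 they were Etv4 and the condensin subunit gene Ncapd2 (0.97 each). Between members, r ranged from −0.61 for Cdkn1a and Cdkn2c to 0.681 for Cdkn2c and Cdkn2d. All libraries share these points, and so their depth and makeup.

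The genes on which the inhibitors act, and those that act on them, were described as 14 lists. Of 208 genes 198 were tested, and edgeR called 0 higher and 0 lower in aged mice, beside 0.113% of all genes. At an unadjusted p under 0.05, 12 of the 198 were higher and 10 lower, beside 405 higher and 655 lower of all 17702 genes (5.99% in either direction). DESeq2 called 2 of the 198 higher, Ccl20 and Tgm3, and 0 lower. Of all 17702 genes it called 68 higher and 122 lower (1.07% in either direction). The median log2 fold change of all tested genes was 0.01. The genes named below had the smallest p of their list, a choice that favours groups without overlap. The groups did not overlap for 3.54% of all tested genes.

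Of the kinases and cyclins that CIP/KIP proteins inhibit, 7 of 7 tested genes lay above 0, with a median of 0.31, and 5 of 7 did so without adult replicates 3 and 4, with a median of 0.04. Cdk2 averaged 33.0 ± 2.57 CPM in aged and 27.2 ± 6.77 CPM in adult libraries (log2 fold change 0.28, edgeR adjusted p = 0.836), and Ccne2 17.1 ± 1.43 and 12.8 ± 3.86 CPM (0.42, adjusted p = 0.836). Cdk2 had a log2 fold change of 0.002 and Ccne2 one of 0.11 without adult replicates 3 and 4. The 30 proliferation genes, with which that list shares Cdk1, Ccna2, Ccnb1 and Ccnb2, likewise lay above 0 with all libraries, with a median of 0.34, and 16 of 30 did so without adult replicates 3 and 4, with a median of 0.03. Among these, Rrm1, a subunit of ribonucleotide reductase, averaged 91.1 ± 11.4 CPM in aged and 65.2 ± 22.3 CPM in adult libraries, and Ube2c 5.21 ± 0.76 and 3.96 ± 0.97 CPM. Their log2 fold changes were 0.48 and 0.39, and 0.12 and 0.31 without adult replicates 3 and 4. None was called, and the lists' medians came close to that of all genes once the 2 adult libraries were left out.

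The targets of the INK4 proteins, CDK4, CDK6 and the D-type cyclins, had 3 of 5 genes above 0 and a median of 0.04, against 0 of 5 and −0.07 without adult replicates 3 and 4. Ccnd1 averaged 116.6 ± 12.8 CPM in aged and 94.0 ± 34.1 CPM in adult libraries, and Ccnd2 444.9 ± 70.9 and 361 ± 166 CPM, with a larger SD in adult than in aged mice for both. Their log2 fold changes were 0.31 and 0.30, and turned to −0.07 and −0.18 without adult replicates 3 and 4. The other inhibitor genes stood low, with a Cdkn3 mean of 1.05 ± 0.19 CPM in aged and 0.854 ± 0.308 CPM in adult mice, and Cdkn1c, which encodes p57, at 0.890 ± 0.455 and 0.748 ± 0.315 CPM. Their log2 fold changes of 0.29 and 0.25 turned to −0.02 and −0.17 without adult replicates 3 and 4. Among activating and inhibiting enzymes of the kinases, 7 of 8 lay above 0 with a median of 0.13, and named genes were Wee1 (0.26) and Pkmyt1 (0.10), 2 kinases that inhibit CDK1. Without adult replicates 3 and 4, 2 of 8 lay above 0 and the median was −0.09, with −0.16 for Wee1 and 0.01 for Pkmyt1.

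Pocket proteins and E2F factors had 7 of 13 genes above 0 (median 0.04), and 12 of 13 without adult replicates 3 and 4 (median 0.09). Rbl1, which encodes p107, had 36.2 to 37.6 CPM in aged and 21.2 to 36.1 CPM in adult libraries, so that the groups did not overlap (log2 fold change 0.35 ± 0.15, edgeR adjusted p = 0.824). E2f1 had 7.4 ± 0.46 CPM in aged and 5.4 ± 1.67 CPM in adult libraries (0.45, adjusted p = 0.83). Rbl1 had a log2 fold change of 0.11 and E2f1 one of 0.14 without adult replicates 3 and 4. The list around Polycomb repression of Cdkn2a had 13 of 18 genes below 0 with a median of −0.07, and 8 of 18 above 0 without adult replicates 3 and 4 (median −0.05). It includes Kdm6b, a demethylase that opposes Polycomb and was among the genes below 0 (−0.07). Cbx2 averaged 33.5 ± 4.62 CPM in aged and 42.8 ± 9.0 CPM in adult libraries (−0.36, adjusted p = 0.824), and Cbx7 23.8 ± 2.11 and 28.1 ± 3.24 CPM (−0.24, adjusted p = 0.83). Cbx2 had a log2 fold change of −0.12 and Cbx7 one of −0.11 without adult replicates 3 and 4.

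Genes of p53 and its targets were mixed. The 6 genes of the p53 core list had a median of 0.04, and Trp63, the family member that marks basal keratinocytes, averaged 667.8 ± 34.7 CPM in aged and 596.8 ± 80.7 CPM in adult libraries, and Trp73 22.8 ± 2.02 and 14.8 ± 9.88 CPM. Their log2 fold changes of 0.16 and 0.63 came to 0.02 and −0.02 without adult replicates 3 and 4. Of 19 tested p53 targets other than Cdkn1a, 8 lay above and 11 below 0, with a median of −0.02. Sesn1, a stress-responsive p53 target, had 54.5 to 67.0 CPM in aged and 67.2 to 89.5 CPM in adult libraries, so that the groups did not overlap by a narrow margin (−0.37 ± 0.11, edgeR adjusted p = 0.678). Sesn2 averaged 24.9 ± 3.25 CPM in aged and 32.6 ± 6.74 CPM in adult libraries (−0.39, adjusted p = 0.805). Sesn1 had a log2 fold change of −0.20 and Sesn2 one of −0.19 without adult replicates 3 and 4.

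Among the regulators of inhibitor genes, which are transcription factors, their Id antagonists and the TGF-β receptors Tgfbr1 and Tgfbr2, 11 of 20 lay above 0 (median 0.01), and 4 of 20 without adult replicates 3 and 4 (median −0.11). Foxo3, which activates Cdkn1b, had 34.7 to 39.8 CPM in aged and 42.8 to 49.5 CPM in adult libraries with no overlap (−0.28 ± 0.08, edgeR adjusted p = 0.648), and Cebpb averaged 29.8 ± 5.20 and 39.5 ± 6.36 CPM (−0.41, adjusted p = 0.781). The list of ubiquitin ligase genes drawn up around p27 and p21 turnover had a median of 0.06 over 11 genes. It was 0.03 without adult replicates 3 and 4. A place in this list does not mean that a gene acts on p27 or p21 itself. Skp2 averaged 8.41 ± 1.27 CPM in aged and 7.43 ± 0.78 CPM in adult mice, and Fbxw7 44.6 ± 0.86 and 40.7 ± 2.52 CPM. Their log2 fold changes were 0.18 and 0.13, and 0.09 and 0.07 without adult replicates 3 and 4. In the list of nuclear lamina and envelope genes and the enzymes that process lamins, 6 of 17 genes lay above 0 (median −0.06, and −0.03 without adult replicates 3 and 4). Tmpo had 144.9 to 150.0 CPM in aged and 107.8 to 139.6 CPM in adult libraries with no overlap (0.23 ± 0.10, adjusted p = 0.819), and Sun2 averaged 137.2 ± 13.2 and 173.7 ± 35.6 CPM (−0.34, adjusted p = 0.824). Tmpo had a log2 fold change of 0.11 and Sun2 one of −0.07 without adult replicates 3 and 4.

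The senescence-associated secreted factors, such as cytokines, chemokines, proteases and their inhibitors, had 25 of 34 tested genes above 0 and a median of 0.33, which turned to −0.11 without adult replicates 3 and 4, where 14 of 34 lay above 0. Ccl20, a chemokine, had 0.630 to 1.87 CPM in aged and 0.140 to 0.409 CPM in adult libraries with no overlap (1.93 ± 0.48, edgeR adjusted p = 0.514), and Plat, a plasminogen activator, averaged 5.37 ± 1.72 and 9.70 ± 2.92 CPM (−0.85, adjusted p = 0.678), with −0.45 for Plat without adult replicates 3 and 4. The immune marker sums of adult replicates 3 and 4, the 2 lowest, are given above, and their part in this median was not tested.

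**Figure D5:**
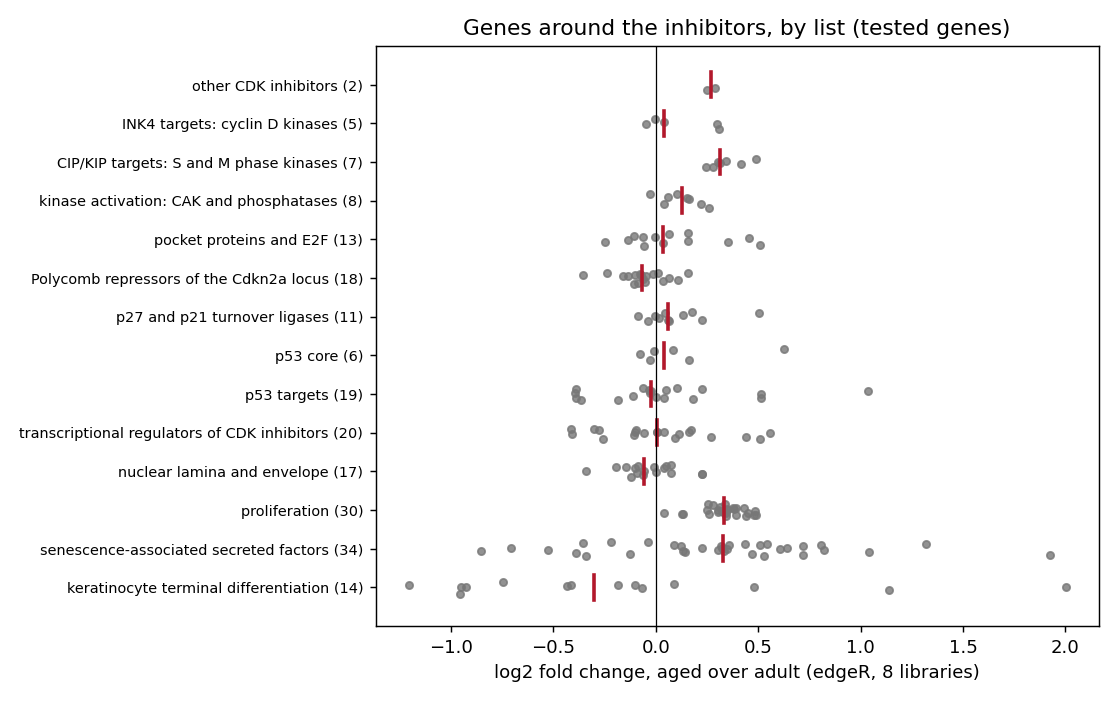
Log2 fold change of aged over adult (edgeR, 8 libraries) of each tested gene (grey) in 14 lists around the inhibitors, with the number of tested genes in parentheses and the list median in red. The proliferation and CIP/KIP target lists lie to the right of 0, with medians of 0.34 and 0.31, and no gene shown was called.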

How the data were processed

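Epidermal RNA from 4 aged and 4 adult mice was sequenced. The authors deposited a table of raw counts per gene (whole reads, not normalized), made according to the labels and the study's methods with STAR 2.5.2b on mm10 and featureCounts on its inbuilt annotation. Multi-overlapping reads were counted, multi-mapped reads were not, and duplicates were kept. The strand setting is not stated. The labels call the RNA polyA, whereas the protocol names a total RNA kit with ribosomal depletion.

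Of 27179 Entrez identifiers, 25275 were named from RefSeq and 18 from GENCODE. Tests used edgeR 4.0.16 (quasi-likelihood, R 4.3.3) with TMM scaling and edgeR's expression filter (17702 genes, common biological coefficient of variation 0.258), with a call at an adjusted p under 0.1 and an absolute log2 fold change over 0.32. The study set the same limits on shrunken fold changes from DESeq2, whereas here they were applied to unshrunken edgeR values. The study fitted a batch, but the sources used here do not assign libraries to batches. Intervals are 95%. CPM differences were tested by exact permutation over 70 splits in scipy 1.17.1. RPKM used exon lengths of GENCODE transcripts paired with RefSeq. Replicates differed far beyond counting noise (chi-square per degree of freedom 70.7 to 397). p-values measure the spread between these mice. Fits were tested on simulated data.

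The members and lists were chosen with earlier results of these data known. Named genes were the members, called list genes, the 2 genes of smallest p in each list, and the 2 genes most like each member.

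Replicate numbers came from the titles. Deviations from group means of libraries with the same number correlated at 0.156, 0.412, 0.205 and 0.206, all over 0.1. Possible pairs by number are therefore a reading from the data and not from the design. The replicate number was fitted as a block in an alternative only, and the main fit and the permutation tests did not pair libraries. Some unlike numbers correlated more strongly (aged 4 with adult 3, 0.304, and aged 3 with adult 4, 0.236), so the pairing is uncertain.

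Alternatives were other scalings and filters, DESeq2 1.42.0, limma-voom with limma 3.58.1, a term for replicates 1-2 against 3-4, the replicate block, each library left out, each replicate pair alone, and leaving out adult replicates 3 and 4. An interaction of age with replicate pair and a relation with terminal differentiation genes were added after seeing the data.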

Additional observations from a re-analysis of the deposited data

Results flagged for a closer look

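The summed level of 5 adipocyte markers in adult replicate 4 was 0.546 CPM, against 0.192 to 0.204 CPM in the other 3 adult libraries, and its gap to the nearest of these was 0.965 of the group's range. It lay near the highest aged library, at 0.536 CPM. Of 38 groups checked for a library far from the others this was the only one that stood out, and chance gives about 1 in 20. Adipoq was at 0 in 3 libraries and Plin1 in 2. None of the 7 genes had such a library in either group.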

How the results depend on the processing

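The call of 0 members held under all 22 alternatives of the fit, DESeq2 and limma-voom included. With the replicate number as a block, the log2 fold change of Cdkn1a was −0.21 (edgeR unadjusted p = 0.0355, adjusted p = 0.371), and the block changed no call of a member or list gene. Small fold changes turned sign. Leaving out each library in turn, they ranged from −0.09 to 0.004 for Cdkn1b, from −0.076 to 0.275 for Cdkn2b and from −0.085 to 0.212 for Lmnb1, and the differences of mean CPM from −2.901 to 0.1312, from −0.6449 to 2.085 and from −1.14 to 2.686. Cdkn2b turned without aged replicate 4 and without adult replicate 1, Cdkn1b without aged replicate 3 and Lmnb1 without adult replicate 3. Without adult replicates 3 and 4, log2 fold changes were −0.007 for Cdkn2c, −0.146 for Cdkn2d and −0.18 for Lmnb1, CPM differences −0.03184, −0.8192 and −2.514, and the Cdkn1a to Cdkn1b ratio difference 0.002. In replicates 1 and 2 alone, Cdkn2d was −0.166 and Lmnb1 −0.208. The main fit tested 198 list genes among 17702 genes, and the counts below are to be read beside these totals. List genes called higher and lower numbered 0 and 0 in the main fit, and 2 and 0 with DESeq2. They numbered 16 and 9 with DESeq2 and a term for the replicate pair, and 45 and 9 in replicates 3 and 4 alone. The cause was not tested. Over all genes, 5 were called higher and 15 lower in the main fit, and 68 and 122 with DESeq2. The counts were 378 and 373 with DESeq2 and the pair term, and 1159 and 976 in replicates 3 and 4 alone. They were 21 and 36 with edgeR and the pair term, 1 and 2 with the block, and 0 and 0 in replicates 1 and 2 alone. Leaving out each library gave 1 to 4 higher and 5 to 12 lower.

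For the relations with proliferation genes, without adult replicates 3 and 4, r was −0.317 for Cdkn1a, 0.046 for Cdkn1b, 0.25 for Cdkn2c, −0.213 for Cdkn2d and 0.349 for Lmnb1. After subtracting group means it was −0.717 for Cdkn1a and 0.687 for Cdkn2c, and with library size alone 0.398 for Cdkn1b. Leaving out each library in turn it ranged from −0.823 to −0.688 for Cdkn1a, from 0.425 to 0.875 for Cdkn2c and from 0.473 to 0.955 for Lmnb1. The lowest values for Cdkn2c and Lmnb1, and the one nearest 0 for Cdkn1a, came without adult replicate 3. With terminal differentiation genes, r for Cdkn2c was 0.528 without adult replicates 3 and 4, 0.008 after subtracting group means and −0.525 to 0.309 leaving out each library. For Cdkn2d it was 0.718 without adult replicates 3 and 4 and −0.379 to 0.073 leaving out each library, and for Cdkn1b −0.19 with library size alone. Reads were few only for Cdkn2a, with 23 in all.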

Other observations

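Terminal differentiation genes of keratinocytes, among them genes of the cornified envelope, keratins and transcription factors, were related to Cdkn1a and Cdkn2b under the main scaling. The mean log2 CPM of the 14 tested genes was 6.04, 6.17, 6.22 and 6.88 in aged and 5.98, 6.58, 6.82 and 6.68 in adult libraries. This relation was tried after the genes most like Cdkn1a had been seen. Over 8 libraries Pearson r was 0.828 for Cdkn1a (exact p = 0.0156, adjusted over 6 relations 0.0468, rho = 0.667, adjusted exact p = 0.249) and 0.835 for Cdkn2b (exact p = 0.00481, adjusted 0.0289, rho = 0.833, adjusted exact p = 0.0923). The other 4 members did not pass. After the group means were subtracted, r was 0.826 and 0.927. Without adult replicates 3 and 4 it was 0.761 and 0.815 (adjusted exact p = 0.203 each). Leaving out each library in turn, r ranged from 0.788 to 0.931 for Cdkn1a and from 0.778 to 0.928 for Cdkn2b. The adjusted exact p then rose to as much as 0.146 for both, without adult replicate 3. With scaling by library size alone, r was 0.668 (adjusted exact p = 0.207) and 0.757 (adjusted exact p = 0.188), and neither passed. Without the 2 libraries farthest from the median, adult replicate 3 and aged replicate 4, r was 0.886 for Cdkn1a (adjusted exact p = 0.0667) and 0.671 for Cdkn2b (adjusted exact p = 0.338). Neither adjusted p was under 0.05 in these 6 libraries.

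The list itself had 4 of 14 genes above 0 between aged and adult mice, with a median log2 fold change of −0.30, and −0.03 without adult replicates 3 and 4. Tgm3, a transglutaminase of the cornified envelope, went the other way, with 18.4 to 42.2 CPM in aged and 10.7 to 16.8 CPM in adult libraries with no overlap (1.14 ± 0.24, edgeR adjusted p = 0.341). Ivl, which encodes involucrin, averaged 55.1 ± 12.7 CPM in aged and 92.5 ± 34.9 CPM in adult libraries (−0.75, adjusted p = 0.775), and its log2 fold change was −0.24 without adult replicates 3 and 4.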
